A study of Rattus norvegicus with 13 samples.

Results

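The core genes of the neurotransmitter release machine are the 8 genes Snap25, Stx1a, Vamp1, Vamp2, Nsf, Cplx1, Cplx2 and Syt1, taken by gene symbol from a table of 14855 genes. All 8 were found, each on 1 row. RNA was sequenced from the medial preoptic area (MPOA), a hypothalamic region, of adolescent male rats of the SAS Sprague-Dawley strain. Each rat had been injected on postnatal day 21 with an adeno-associated virus, AAV5-GFP-U6, which drives a short hairpin RNA (shRNA) from the U6 promoter and carries GFP. Of the samples, 5 had received the Oprm1 shRNA, directed at the gene of the mu opioid receptor, and 7 the scrambled (Scr) shRNA. The label of 1 further Oprm1 shRNA sample, number 6, says that it was left out. Virus, GFP and the U6 promoter, which is active in most cell types, are common to both groups, and the share of cells that took up virus was not analysed here. The comparison asks how gene expression in this region differs after knockdown of Oprm1. The data are a single edgeR comparison, deposited by the authors as a table, so that levels in single samples were not analysed here and every fold change is the Oprm1 shRNA group over the scrambled shRNA group.

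At a nerve terminal, SNAP-25 and syntaxin on the target membrane zip together with a synaptobrevin (VAMP) on the vesicle, and the 4-helix bundle they form pulls the membranes together. Complexin binds the assembled bundle and synaptotagmin senses the calcium that triggers fusion, after which the ATPase NSF takes the spent bundle apart for reuse. Opioid receptors that couple to Gi/o proteins are known to reduce transmitter release, in part because G protein beta-gamma subunits act on calcium channels and on the SNARE bundle itself. These transcripts lie mainly in cell bodies, so RNA from the MPOA reports neurons whose cell bodies are there rather than the terminals that reach it from elsewhere.

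Across the whole table, 3 genes passed an adjusted p under 0.05, all higher with Oprm1 shRNA, per the authors' deposited table. Oprm1 itself (ENSRNOG00000018191) had a log2 fold change of −0.58 and 7.32 CPM (read counts scaled by library size) per the authors' deposited table, a fold of 0.670. Each log2 fold change was given an implied standard error, worked out from its size and the authors' likelihood ratio, and an approximate 95% interval. The interval of the Oprm1 fold, from 0.0715 to 6.27, is too wide to check the group labels or the knockdown (the authors' unadjusted p = 0.725 and adjusted p = 0.9997, by edgeR). The median log2 fold change of all genes was −0.018 and their median abundance 22.2 CPM.

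No gene of the release core differed between the groups at the threshold. At an adjusted p under 0.05, 0 of the 8 passed in the authors' deposited edgeR comparison, against 0.0202% of all genes. At an unadjusted p under 0.05 the count was also 0 of 8, against 4.39% of all genes, and every member had an adjusted p of 0.9997 per the authors' deposited table. With Oprm1 shRNA 3 of the 8 were higher and 5 lower per the authors' deposited table, where 51.6% of all genes were lower, and 4 were lower once fold changes were centred on the median of all genes, since Vamp2 then changes sign. Their log2 fold changes lay between −0.18 for Syt1 and 0.11 for Vamp1 per the authors' deposited table, with a median of −0.025. All 8 of the approximate 95% intervals held a fold of 1. Since RNA came from whole tissue, fewer cells of a type and less RNA per cell cannot be told apart in any of these values.

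**Figure D1:**
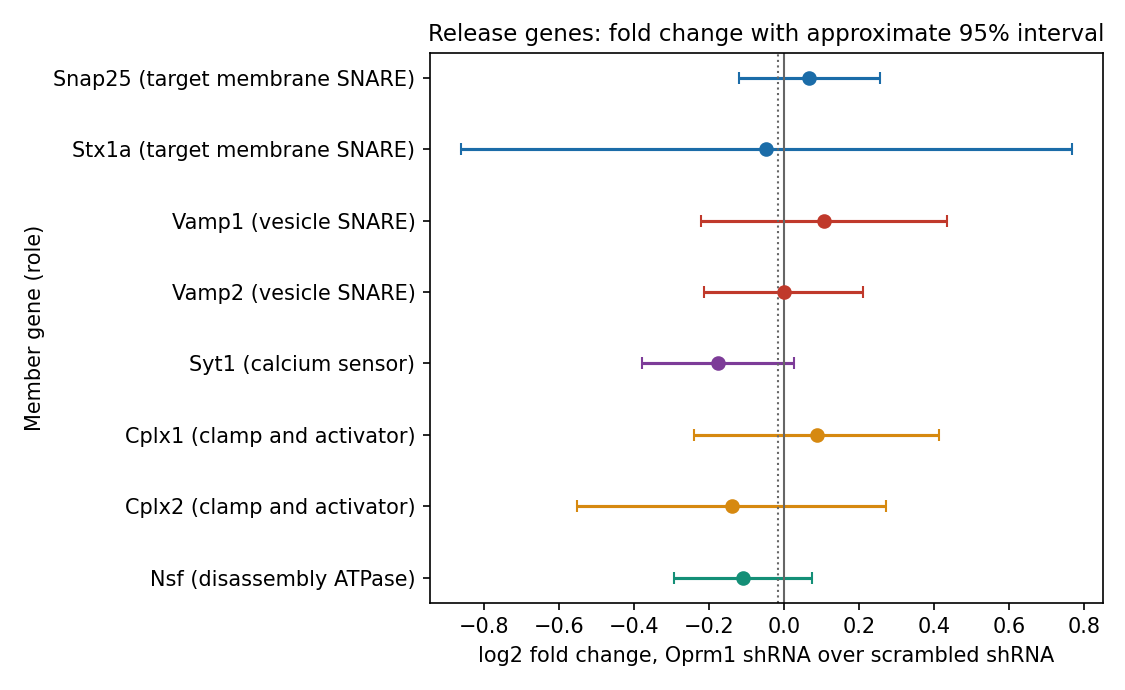
Log2 fold change (horizontal axis, Oprm1 shRNA over scrambled shRNA) of the 8 release genes, one per row and coloured by role. Points are the authors' deposited values, bars are approximate 95% intervals computed from the authors' likelihood ratio, the solid line marks no difference and the dotted line the median of all genes at −0.018. Every bar crosses the solid line, and the bar of Stx1a is the longest of the 8.

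The promoter windows of 3 members are shown because they belong to the gene with the lowest fold change, Syt1, the one with the highest, Vamp1, and the one nearest to no difference, Vamp2. Each runs from 250 bases before to 50 bases after a gene start, 5′ to 3′ along the gene, from RefSeq on the rat build GRCr8, which is another build than the authors' Rnor_6.0. Capitals mark matches, on either strand, to the GC box bound by Sp1 (GGGCGG), the cyclic AMP response element (TGACGTCA) and the element bound by Egr1 (GCGNGGGCG), which may share bases with a GC box.
Syt1 (chr7:46244164-46244463, minus strand): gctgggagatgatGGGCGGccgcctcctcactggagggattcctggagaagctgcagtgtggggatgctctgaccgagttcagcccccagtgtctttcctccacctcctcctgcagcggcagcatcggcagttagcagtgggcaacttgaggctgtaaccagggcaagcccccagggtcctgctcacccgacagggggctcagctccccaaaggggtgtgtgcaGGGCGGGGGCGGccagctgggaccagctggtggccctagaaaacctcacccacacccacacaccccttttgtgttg
Vamp1 (chr4:159698644-159698943, plus strand): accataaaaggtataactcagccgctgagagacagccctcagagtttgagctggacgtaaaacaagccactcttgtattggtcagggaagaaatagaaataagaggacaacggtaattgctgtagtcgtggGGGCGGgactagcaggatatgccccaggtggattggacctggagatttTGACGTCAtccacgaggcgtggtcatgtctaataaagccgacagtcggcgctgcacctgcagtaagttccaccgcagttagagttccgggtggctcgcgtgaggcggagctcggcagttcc
Vamp2 (chr10:54292539-54292838, plus strand): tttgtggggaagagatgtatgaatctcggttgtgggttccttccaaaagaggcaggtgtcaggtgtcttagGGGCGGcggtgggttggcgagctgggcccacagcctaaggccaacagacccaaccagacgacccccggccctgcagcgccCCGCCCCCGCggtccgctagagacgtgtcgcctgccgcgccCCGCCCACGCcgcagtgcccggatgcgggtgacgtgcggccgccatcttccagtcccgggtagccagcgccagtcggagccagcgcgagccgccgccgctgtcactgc
The 7 members with a window in that table, all but Snap25, each held a GC box, which occurs in 33.1% of the 33469 windows of the same length. The full cyclic AMP response element lay in 1 of the 7, that of Vamp1 at 71 bases before the start, and in 1.83% of all windows. The Egr element occurred in 4 of the 7, Syt1, Vamp2, Nsf and Cplx1, and in 4.98% of all windows. The windows of the members ran from 53.3% G and C in Vamp1 to 69.3% in Vamp2, against a median of 51.7% over all windows. Cplx2, at 54.0%, and Stx1a, at 68.7%, held GC boxes and neither of the other motifs. These matches describe letters in the windows, and binding was not measured.

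Among the target membrane SNAREs, Snap25 (ENSRNOG00000006037), which gives the bundle 2 of its helices and is cut by botulinum toxin A, showed a log2 fold change of 0.07 and an abundance of 681 CPM per the authors' deposited table. The fold was 1.05 and its approximate 95% interval reached from 0.919 to 1.19 (the authors' unadjusted p = 0.490, by edgeR). Snap25 is among the members measured most closely. Stx1a (ENSRNOG00000029165), a syntaxin anchored in the plasma membrane and the member with the fewest reads, showed a log2 fold change of −0.05 and an abundance of 51.7 CPM per the authors' deposited table. Its fold of 0.967 had an interval from 0.549 to 1.70 (the authors' unadjusted p = 0.908, by edgeR). The interval of Stx1a reaches well beyond that of Snap25 on both sides. CPM values are not divided by transcript length, so the levels of different genes are not ranked here.

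The vesicle SNAREs Vamp1 and Vamp2 encode synaptobrevin 1 and synaptobrevin 2, which can each supply the vesicle's helix and are used in different proportions by different neurons. Vamp2 (ENSRNOG00000006989) showed a log2 fold change of −0.0019 and an abundance of 749 CPM per the authors' deposited table. Its fold was 0.999, with an interval from 0.863 to 1.16 (the authors' unadjusted p = 0.986, by edgeR), the value nearest to no difference among the 8. Vamp1 (ENSRNOG00000019219), which in the rodent brain is prominent in brainstem, spinal cord and fast-spiking neurons, had 0.11 at 366 CPM per the authors' deposited table. For Vamp1 the fold was 1.08 and the interval 0.858 to 1.35 (the authors' unadjusted p = 0.526, by edgeR). Set against each other, Vamp1 stood 0.11 above Vamp2 in log2 fold change. Their intervals overlapped, and the difference itself was not tested, since that needs values per sample. Vamp1 and Vamp2 share stretches of coding sequence, and whether reads shared between them affected either value was not tested.

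Syt1 (ENSRNOG00000006426), the calcium sensor of fast synchronous release, was the member farthest from no difference. It showed a log2 fold change of −0.18 and an abundance of 970 CPM per the authors' deposited table, a fold of 0.885. The interval ran from 0.768 to 1.02, so that it just included 1 (the authors' unadjusted p = 0.0892 and adjusted p = 0.9997, by edgeR). In the order of unadjusted p-values over the table Syt1 stood at place 1090, with 7.33% of all genes having a smaller p. Syt1 was singled out as the smallest p of the 8, so this place is not that of a gene chosen beforehand. Its log2 fold change was larger in size than the median of genes within 0.5 log2 CPM of it, 0.177 against 0.0607. Its implied standard error was also above the median of those genes, 0.104 against 0.0955. Syt2, the sensor that stands in for Syt1 in many fast-spiking and hindbrain neurons, showed a log2 fold change of 0.57 and an abundance of 24.4 CPM per the authors' deposited table (unadjusted p = 0.325, by edgeR).

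The complexins, small soluble proteins that hold the bundle before calcium arrives and help it fuse afterwards, had values on opposite sides of no difference. Cplx1 (ENSRNOG00000000060) showed a log2 fold change of 0.09 and an abundance of 354 CPM per the authors' deposited table, a fold of 1.06 with an interval from 0.846 to 1.33 (unadjusted p = 0.606, by edgeR). Cplx2 (ENSRNOG00000000105) had −0.14 at 219 CPM per the authors' deposited table, a fold of 0.907 with an interval from 0.682 to 1.21 (unadjusted p = 0.503, by edgeR). Cplx1 thus stood 0.23 above Cplx2 in log2 fold change. Both intervals held 1 and they overlapped, and the difference between the 2 genes was not tested. In rodent forebrain Cplx1 is known for inhibitory neurons and Cplx2 for excitatory ones. The GABAergic marker Gad1, which encodes a GABA-synthesizing enzyme, had 0.17 per the authors' deposited table (unadjusted p = 0.181, by edgeR), and the glutamatergic marker Slc17a6, the vesicular glutamate transporter of hypothalamic neurons, had −0.27 there (unadjusted p = 0.248, by edgeR). None of these 4 genes passed, and the part of cell makeup in the complexin values was not tested.

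Nsf (ENSRNOG00000003905), the ATPase that pulls used SNARE bundles apart, showed a log2 fold change of −0.11 and an abundance of 799 CPM per the authors' deposited table. Its fold was 0.927 and its interval 0.815 to 1.05 (unadjusted p = 0.245, by edgeR), the narrowest interval on the log scale among the 8. The adaptors that recruit NSF to the bundle are the alpha, beta and gamma SNAPs, encoded by Napa, Napb and Napg and unrelated to SNAP-25. They had log2 fold changes of 0.21, 0.09 and −0.07 per the authors' deposited table, with the authors' unadjusted p-values of 0.298, 0.756 and 0.761 by edgeR. Of this disassembly group 2 genes were higher and 2 lower, and none passed.

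**Figure D2:**
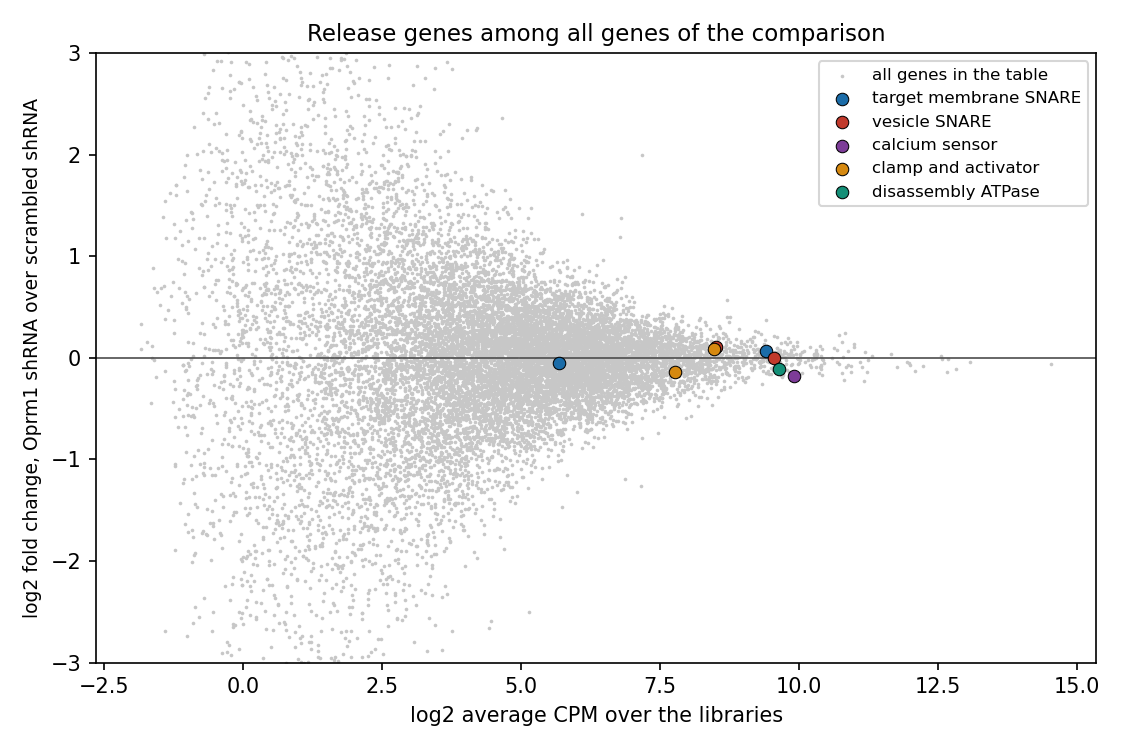
Log2 fold change (vertical axis, Oprm1 shRNA over scrambled shRNA) against log2 average CPM over the libraries (horizontal axis) for all genes of the authors' deposited table in grey, with the 8 release genes coloured by role. The 716 genes beyond 3 on the vertical axis are not drawn. The release genes lie close to 0, inside the grey cloud at their own abundance, and 7 of them are at the abundant end, with Stx1a apart at 51.7 CPM.

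The members with more reads were measured more closely. The implied standard error of the log2 fold change was 0.094 for Nsf, 0.096 for Snap25, 0.104 for Syt1 and 0.108 for Vamp2. It was 0.167 for both Vamp1 and Cplx1, 0.210 for Cplx2 and 0.416 for Stx1a, in the order of falling reads apart from small exchanges at the top. In 6 of the 8 members it was below the median of all genes within 0.5 log2 CPM of the member, the exceptions being Stx1a (0.416 against 0.381) and Syt1 (0.104 against 0.0955). Over the 4273 genes between the lowest and the highest member in abundance, the median implied standard error was 0.262. The median size of the log2 fold change, whatever its sign, was 0.096 in the 8 members, against 0.162 in those 4273 genes and 0.351 in the whole table. Most members lie near the upper end of that abundance range, so these medians are not set on equal terms. Against the median of genes within 0.5 log2 CPM, 4 members had the larger value, among them Syt1 (0.177 against 0.0607) and Nsf (0.110 against 0.0631), and 4 the smaller, among them Snap25 (0.066 against 0.071) and Stx1a (0.048 against 0.233).

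**Figure D3:**
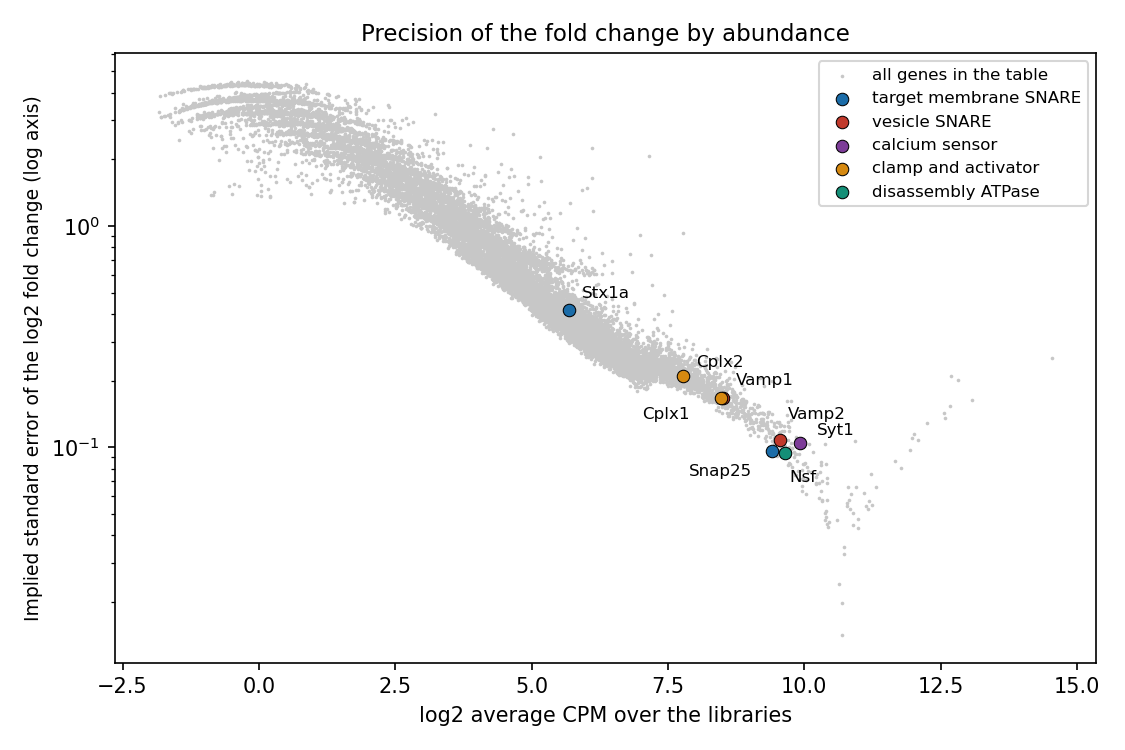
Implied standard error of the log2 fold change (vertical log axis) against log2 average CPM (horizontal axis) for all genes in grey and the 8 release genes in colour, each named. Over most of the range the error falls with abundance, and the release genes follow the grey band, with Stx1a at 0.416 and Nsf at 0.094.

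Around the core, 108 further genes of the release cycle were listed in 6 groups, of which 105 were measured. At an adjusted p under 0.05, 0 of the 105 passed in the authors' deposited edgeR comparison, against 0.0202% of all genes. At an unadjusted p under 0.05 the count was also 0 of the 105, against 4.39% of all genes. With Oprm1 shRNA 56 were higher and 49 lower, and the median log2 fold change was 0.006 per the authors' deposited table. The intervals of the 105 reached, at the median, 1.495-fold to either side of the fitted value. For a gene with an interval of that width, a smaller fitted change does not reach an unadjusted p under 0.05. An adjusted p under 0.05 needs a larger change still, so that changes well above that size could also be missed.

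Among the other SNAREs, 7 of 14 were higher and 7 lower, and the median log2 fold change was −0.058. Stx3, a syntaxin known from ribbon synapses and postsynaptic sites, had 0.76 and Stx6, a syntaxin of the Golgi and endosomes, −0.36 per the authors' deposited table (unadjusted p = 0.172 and 0.292, by edgeR). Vamp3 and Vamp4, SNAREs of recycling and endosomal vesicles, had −0.16 and 0.03 per the authors' deposited table. Among factors that assemble, prime or take apart the bundle, 10 of 20 were higher and 10 lower, with a median of −0.0066. The 20 also include the active zone scaffolds Bsn and Pclo, at 0.13 and 0.00036 per the authors' deposited table. The smallest p-values in that group belonged to Dnajc5 at −0.46, a chaperone of SNAP-25, and Cadps2 at 0.35, a priming factor of dense-core vesicles, both per the authors' deposited table. Their unadjusted p-values were 0.121 and 0.132 by edgeR.

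Calcium sensors and complexins outside the core had 10 of 16 higher and 6 lower, and the median log2 fold change was 0.028. Syt7, the slow sensor of asynchronous release and of facilitation, had 0.55 per the authors' deposited table (unadjusted p = 0.104, by edgeR). Syt5 at 0.35 and Syt6 at −0.43 followed per the authors' deposited table. Scaffold and docking genes of the active zone had 8 of 19 higher and 11 lower, with a median of −0.082. Rimbp2, which ties calcium channels to the release site, had 0.48, Ppfia1, a liprin scaffold, −0.52 and Lin7a, a scaffold with few reads at 1.77 CPM, a fitted −3.10 per the authors' deposited table (unadjusted p = 0.142, 0.146 and 0.223, by edgeR). Rab3a, the GTPase of docked vesicles, stood at 0.0026 per the authors' deposited table.

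Vesicle membrane proteins and synapsins had 10 of 16 higher and 6 lower, and the median log2 fold change was 0.054. Syp, synaptophysin, a partner of VAMP2 on the vesicle, had 0.20 at 578 CPM per the authors' deposited table, a fold of 1.15 with an interval from 0.974 to 1.36 (unadjusted p = 0.1002, by edgeR). Syngr3, a vesicle protein, had 0.30 and Svop, a transporter-like vesicle protein, 0.23 per the authors' deposited table. Genes of vesicle endocytosis had 11 of 20 higher and 9 lower, with a median of 0.010. Clta, a clathrin light chain, had 0.31 (unadjusted p = 0.0874, by edgeR), Sh3gl3, an endophilin, 0.35 and Dnm1, the dynamin of neurons that pinches vesicles off, −0.16 per the authors' deposited table.

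**Figure D4:**
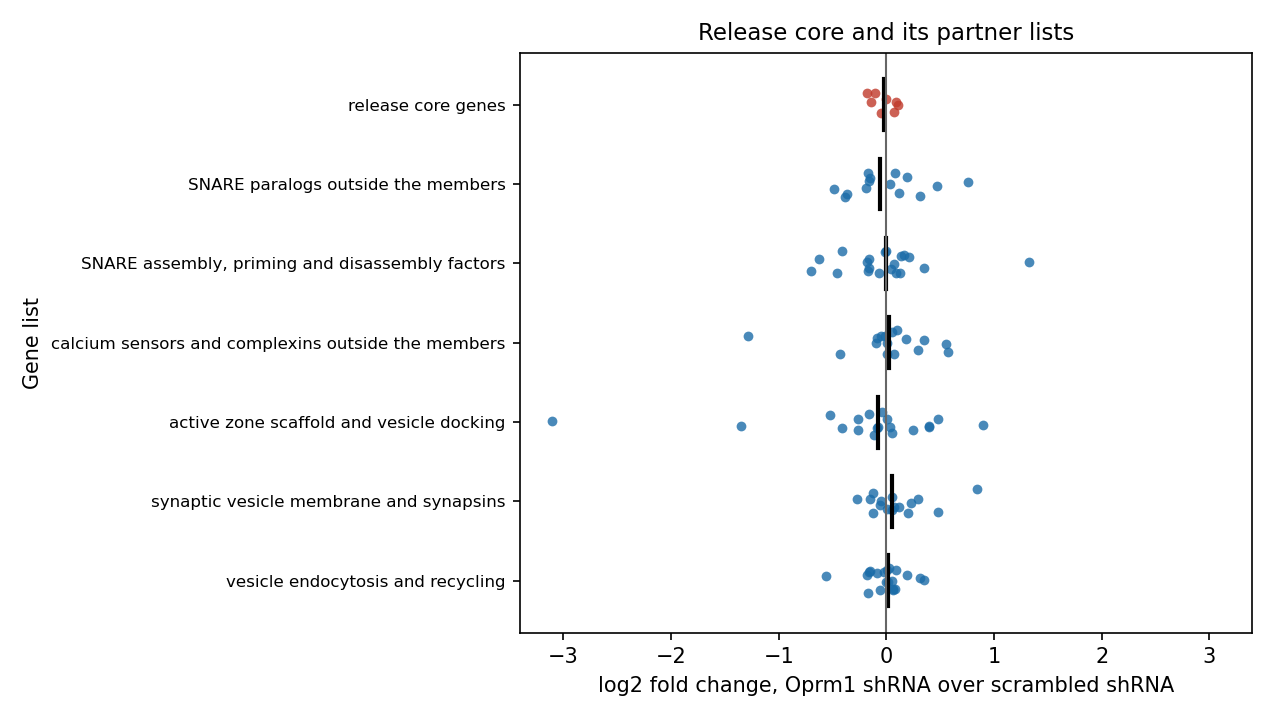
Log2 fold change (horizontal axis, Oprm1 shRNA over scrambled shRNA) of the 8 core genes in red and of the measured genes of 6 partner lists in blue, 1 point per gene, with a black bar at each list's median. The medians lie between −0.082 and 0.054, and the far point at −3.10 is Lin7a at 1.77 CPM.

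Since the core genes are expressed chiefly by neurons, the levels of cell type markers in the same comparison are given beside them. Of 15 neuronal markers measured 8 were higher and 7 lower, and the median log2 fold change was 0.029. Of the 15, 0 passed an adjusted p under 0.05 in the authors' deposited edgeR comparison, against 0.0202% of all genes. An unadjusted p under 0.05 was reached by 2 of the 15, against 4.39% of all genes. Map2, a dendritic microtubule protein, had −0.15 (unadjusted p = 0.00635, by edgeR) and Elavl3, a neuronal RNA-binding protein, 0.76 (unadjusted p = 0.0106, by edgeR) per the authors' deposited table. These 2 point in opposite directions, and Snhg11, a neuronal noncoding RNA, followed with 0.13 per the authors' deposited table. All 15 neuronal markers measured had at least 29.7 CPM, in tissue labelled as brain.

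GABAergic markers had 5 of 7 higher and a median log2 fold change of 0.17, with Dlx1, a homeobox gene of GABAergic neurons, at 0.30 and Gad2, a GABA-synthesizing enzyme, at −0.07 per the authors' deposited table. Glutamatergic markers had 3 of 4 lower and a median of −0.24. Of these Tbr1, a cortical factor at 3.10 CPM, had 2.45, and Slc17a7, the cortical vesicular glutamate transporter at 0.785 CPM, −1.47 per the authors' deposited table, so that Slc17a6, at 208 CPM, holds most of that list's reads. Markers of fast-spiking neurons had 6 of 10 higher and a median of 0.049, and the smallest p-values were those of Esrrg, a nuclear receptor, at 0.97, Hcn2, a pacemaker channel, at 0.33 and Hapln1, a perineuronal net linker, at −1.07 per the authors' deposited table. Pvalb, the calcium buffer that defines many of these cells and named after its value was seen, had the highest value, 1.38 at 4.86 CPM per the authors' deposited table (unadjusted p = 0.433, by edgeR). The interval of the Pvalb fold was wide, from 0.24 to 28.7, and 4 of the 10 fast-spiking markers were lower.

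Among glia and vessels, astrocyte markers had 8 of 11 lower, and their median log2 fold change was −0.14. Slc1a2, the glial glutamate transporter, had −1.47 (unadjusted p = 0.0275, by edgeR), Gfap, the glial filament, 0.37 and Fgfr3, a growth factor receptor, −0.56 per the authors' deposited table. Myelin markers had 9 of 11 lower and a median of −0.068, with Ugt8 at −0.26 and Aspa at −0.25 per the authors' deposited table. Microglial markers had 5 of 9 lower and a median of −0.0013, with C1qa at 0.31 and C1qc at −0.35 per the authors' deposited table. Endothelial markers had 3 of 6 lower and a median of −0.072, with Slco1a4 at −0.41, Cldn5 at 0.29 and Cdh5 at 0.40 per the authors' deposited table. At an adjusted p under 0.05, 0 genes passed in any of the 8 marker lists in the authors' deposited edgeR comparison. The share over all genes was 0.0202%, so that lists of this size would seldom hold such a gene. Slc1a2 and the 2 neuronal genes were the 3 of 73 measured markers with an unadjusted p under 0.05, against 4.39% of all genes.

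**Figure D5:**
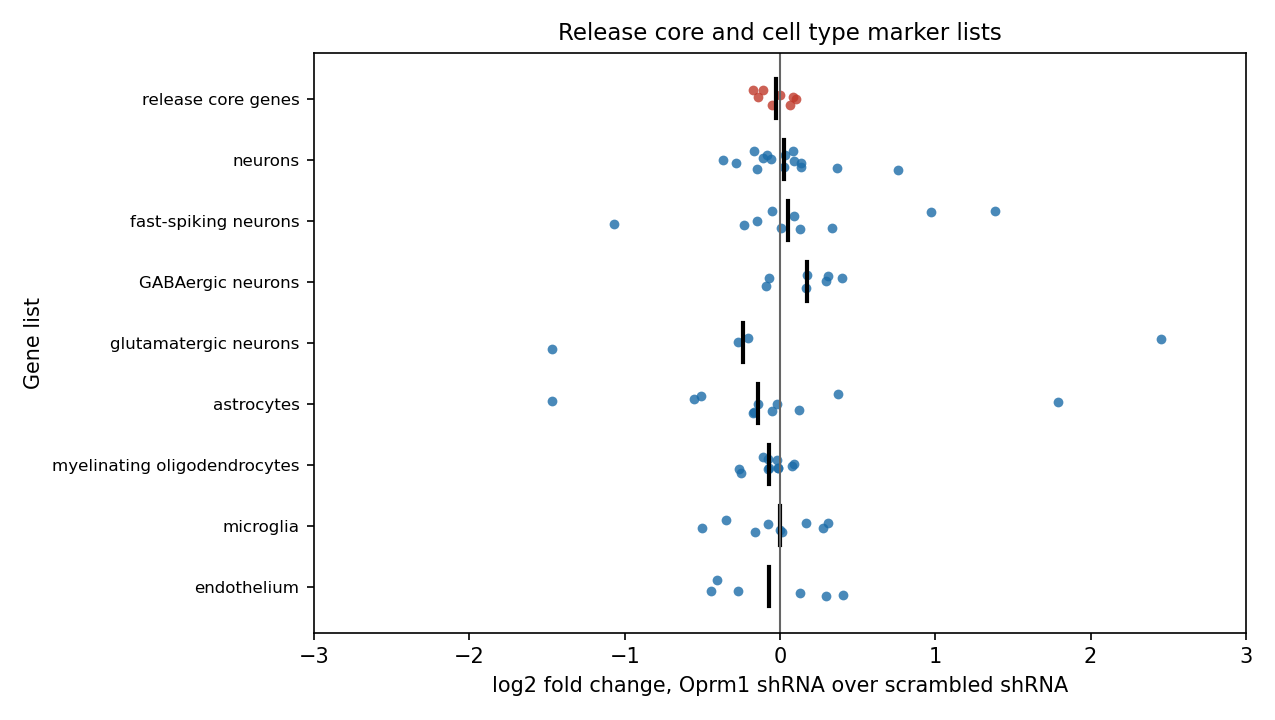
Log2 fold change (horizontal axis, Oprm1 shRNA over scrambled shRNA) of the 8 core genes in red and of the measured genes of 8 lists of cell type markers in blue, 1 point per gene, with a black bar at each list's median. The medians lie between −0.24 for glutamatergic and 0.17 for GABAergic neurons, and the core genes span −0.18 to 0.11.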

How the data were processed

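Libraries were made from dissected MPOA with standard Illumina protocols, per the labels' protocols. Of 13 labelled samples 12 enter the groups, 5 with Oprm1 shRNA and 7 with scrambled shRNA. Whether samples are separate rats is not stated, and p-values then measure the spread between samples, which may be technical. Tools named in the submitters' processing notes are STAR 2.5.3a, RSEM, edgeR 3.28.0 and bcl2fastq 2.20, with the build Rnor_6.0. Annotation, low-count filter, dispersion setting and strandedness are not given in the sources used here. Per the file headers, the authors deposited for each gene a log2 fold change, the log2 of its average CPM, a likelihood ratio (a score with no fixed range), a p-value and its Benjamini-Hochberg adjustment. Each deposited p-value equals the upper tail, at the likelihood ratio, of the chi-square distribution on 1 degree of freedom. The adjusted values imply 14859 tests, 4 more than the rows at hand.

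The depth per sample is unknown, and no count model could be refitted. For the implied standard error the size of the log2 fold change was divided by the likelihood ratio's square root, and intervals are normal 95% intervals made from it. That calculation was run on simulated data that took the likelihood ratio as the squared ratio of log2 fold change to standard error. Whether the authors' likelihood ratio follows this was not tested. Alternatives centred the fold changes on the median of all genes or of genes within 0.5 log2 CPM, raised standard errors to the median of those neighbours, and changed thresholds or the abundance filter. The members, the 6 partner lists and the 8 marker lists were chosen with earlier results of these data known. Named are the members, Oprm1 and the 3 genes of smallest p in each list. A few genes named by this rule are not reported here. Syt2, Napa, Napb, Napg, Vamp3, Vamp4, Rab3a, Bsn and Pclo were also named for their roles, after their values were seen. Python 3.11.15, numpy 2.4.6, pandas 2.3.3 and scipy 1.17.1 were used.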

Additional observations from a re-analysis of the deposited data

How the results depend on the processing

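The count of 0 members past an adjusted p of 0.05 was 0 under each of 7 alternatives: thresholds of 0.1 and 0.01, adjustment redone over the rows at hand or over genes of log2 CPM at least 0, standard errors raised to those of genes of like abundance, and both centrings. The count at an unadjusted p under 0.05 was 0 under the 3 alternatives tried, with the smallest p between 0.0794 and 0.126, that of Syt1. Centred on the median of all genes, Vamp2 took the opposite sign, with 0.016 in place of −0.0019, which leaves 4 members lower in place of 5. The other 7 members kept their sign under both centrings. Leaving out each member in turn gave a median between −0.048 and −0.0019. The medians of the partner lists lay between −0.074 and 0.072 under the centrings, with 2 changes of sign among 12 values, both in the list of assembly, priming and disassembly factors.
No paired analysis was possible because the data are one comparison without values per sample, and no replicate was left out for the same reason. Stx1a, with the fewest reads of the 8, also had the widest interval, at an implied standard error of 0.416.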
